A study of Mus musculus with 24 samples.

Results

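The osteoblast genes Sp7, Alpl and 6 partners, all genes of bone-forming cells, were followed through 24 microarrays of mouse muscle cells treated or not with bone morphogenetic protein 4 (BMP4). The 8 genes were Sp7, Alpl, Ibsp, Dmp1, Phospho1, Pth1r, Phex and Sparc. They were chosen by name as an osteoblast set, with earlier results of these data known. Counts of called genes among them therefore describe these 8 genes and are no independent support. Each is represented by the probe set whose annotation lists only that symbol. All 8 of 8 had exactly 1 such probe set among the 19938 genes tested. The probe sets were 10433003 for Sp7, 10517587 for Alpl, 10523701 for Ibsp, 10523693 for Dmp1, 10380566 for Phospho1, 10597239 for Pth1r, 10607499 for Phex and 10386058 for Sparc. The design asks whether the receptor tyrosine kinase MuSK alters BMP responses of muscle cells and whether myotubes and myoblasts differ in this. Groups of 3 arrays were formed by stage, genotype and treatment: MuSK-null and wild-type H-2Kb-tsA58 myotubes, and MuSK-null and wild-type H-2Kb-tsA58 myoblasts, each with and without BMP4. Treated cells received 25 ng/ml BMP4 for 8 h. Myotubes had been differentiated for 3 days at 37 °C and were treated without serum deprivation, whereas myoblasts were kept at 33 °C and serum deprived for 4 h before BMP4. Whether untreated myoblasts were deprived of serum is not stated, so that BMP4 and serum deprivation cannot be told apart in the myoblast contrasts. Stage goes with temperature in all groups and with serum deprivation in treated ones, so these cannot be told apart in the stage contrasts.

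All cells carried a temperature-sensitive large T antigen (tsA58) under the interferon-responsive H-2Kb promoter, which keeps the myoblasts dividing at the lower temperature. Each genotype was 1 line, so genotype and line cannot be told apart. The labels call the arrays of a group biological replicates without saying whether they came from separate cultures, so the p-values rest on array-to-array spread that may be technical. The Musk probe set read lower in MuSK-null than in wild-type cells, by -1.51 log2 units (SE 0.07) in untreated myotubes and by -0.72 (SE 0.07) in untreated myoblasts. It still read well above background in MuSK-null cells, with means of 11.22 in untreated MuSK-null and 12.72 in untreated wild-type myotubes, and of 10.85 in untreated MuSK-null and 11.57 in untreated wild-type myoblasts. Whether its probes lie inside the deleted part of the gene was not known here, which limits what Musk can say about the genotype labels. A set of 4 myoblast arrays, 1 in each myoblast group, deviated together over rows with no gene name. It was picked as the most alike of all such sets, and the labels name no batch for it. The myoblast results of Sp7 and Alpl are given with and without these 4 arrays. All 10 measured myogenic markers were above background in every group. In bulk RNA, a change in the number of cells that express a gene and a change in RNA per cell cannot be told apart.

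BMPs are secreted ligands that bind serine/threonine kinase receptors, which phosphorylate Smad transcription factors. In myoblast lines BMPs are known to suppress the muscle programme and to switch on bone genes. Sp7, also called osterix, is a zinc finger transcription factor required for osteoblast formation. Alpl encodes tissue-nonspecific alkaline phosphatase, which removes the mineralisation inhibitor pyrophosphate and is the classical readout of this switch. Phospho1 is a phosphatase that releases phosphate inside matrix vesicles and is also present in skeletal muscle. Ibsp (bone sialoprotein) and Dmp1 (dentin matrix protein 1) are acidic matrix proteins of mineralising bone and of osteocytes. Phex is a membrane endopeptidase of osteoblasts and osteocytes, whose loss raises FGF23 and causes phosphate wasting. Pth1r is the receptor for parathyroid hormone and its related peptide, and Sparc (osteonectin) is a collagen-binding matrix protein found in many connective tissues and cultured cells.

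The promoters of Alpl, Phospho1 and Ibsp are shown because these 3 genes behaved differently: Alpl responded to BMP4, Phospho1 differed mainly between myotubes and myoblasts, and Ibsp was near background throughout. The RefSeq promoter table of GRCm38.p6 held entries for 7 of the 8 genes, with 11 start sites. Each sequence is the 250 bases before a start site, 5′ to 3′ on the gene's strand. Capitals mark GGGCGG (the GC box bound by Sp family factors), GGCGCC (a GC-rich sequence that Smads can bind) and TGTGGT (a Runx core motif), searched on both strands.
Alpl, first start site, chr4:137796385-137796634, minus strand: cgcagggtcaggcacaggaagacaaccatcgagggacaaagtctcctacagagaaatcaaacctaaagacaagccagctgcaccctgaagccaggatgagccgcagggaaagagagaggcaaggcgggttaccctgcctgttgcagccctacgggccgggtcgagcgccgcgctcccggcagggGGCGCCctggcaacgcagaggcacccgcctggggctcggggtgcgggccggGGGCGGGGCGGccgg
Alpl, second start site, chr4:137766476-137766725, minus strand: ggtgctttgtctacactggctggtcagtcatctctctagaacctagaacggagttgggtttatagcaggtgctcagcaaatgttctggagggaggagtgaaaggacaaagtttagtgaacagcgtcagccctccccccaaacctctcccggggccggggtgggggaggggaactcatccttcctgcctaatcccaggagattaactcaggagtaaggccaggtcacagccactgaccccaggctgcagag
Phospho1, chr11:95824250-95824499, plus strand: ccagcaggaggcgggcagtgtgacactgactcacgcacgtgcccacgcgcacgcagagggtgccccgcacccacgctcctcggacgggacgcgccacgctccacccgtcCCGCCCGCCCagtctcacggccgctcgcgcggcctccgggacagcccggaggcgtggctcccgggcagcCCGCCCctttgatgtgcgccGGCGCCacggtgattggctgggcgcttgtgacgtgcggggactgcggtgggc
Ibsp, chr5:104299037-104299286, plus strand: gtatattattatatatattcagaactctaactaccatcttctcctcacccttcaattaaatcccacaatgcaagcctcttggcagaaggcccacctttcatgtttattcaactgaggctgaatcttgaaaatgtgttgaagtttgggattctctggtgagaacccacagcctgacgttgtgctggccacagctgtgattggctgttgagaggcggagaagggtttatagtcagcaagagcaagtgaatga
The first Alpl window held 2 GGGCGG matches and 1 GGCGCC match, and the second held 0 matches of any of the 3 motifs. The Phospho1 window held 3 GGGCGG matches and 1 GGCGCC match. The Ibsp window held 0. GC content was 68.4% and 56% in the Alpl windows, 75.6% for Phospho1 and 43.6% for Ibsp. Matches of the different motifs did not overlap one another, but neighbouring GGGCGG matches share bases in the first Alpl window and in Phospho1. Of all 32851 promoter windows of the same length, 32.7% held GGGCGG, 9.59% held GGCGCC and 14% held TGTGGT. A match describes letters in a window and is not a binding site.

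The values are log2 signals, and a difference of 1 is a doubling. To judge which levels can be read, each group mean was set against the means of 1228 olfactory, vomeronasal and taste receptor genes in that group, and a gene at or under their 95th percentile (6.58 to 6.69 over the groups) was called near background. By that measure 29.9% to 31.5% of all genes were near background. Ibsp and Phex were near background in all 8 groups. Sp7 was near background in untreated MuSK-null myotubes and untreated MuSK-null myoblasts. Dmp1 was near background in every myoblast group and in treated MuSK-null myotubes. Alpl, Phospho1, Pth1r and Sparc were above it everywhere, although Alpl, Phospho1 and Pth1r lay within 1 unit of it in several groups. Where the lower side of a comparison was near background, the fold is given as a lower bound against that percentile. Such a bound is taken from group means and makes no allowance for the spread of the arrays.

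Sp7 and Alpl were the genes that rose with BMP4 in more than 1 setting. Of the other 6 genes, Dmp1 and Pth1r passed the test of the response in wild-type myotubes and the remaining 4 passed it in no setting. A gene was called at a Benjamini-Hochberg adjusted p under 0.05 from limma over all 19938 genes. In MuSK-null myotubes 1 of the 8 genes was called, Sp7, where 11.3% of all genes were. In wild-type myotubes 4 were called, Sp7, Alpl and Dmp1 higher and Pth1r lower, where 8.77% of all genes were. In MuSK-null myoblasts 2 were called, where 8.42% of all genes were, and in wild-type myoblasts 2, where 11% were. In both myoblast settings these were Sp7 and Alpl, both higher. The median change of the 8 genes was 0.00, 0.20, 0.20 and -0.01 in MuSK-null myotubes, wild-type myotubes, MuSK-null myoblasts and wild-type myoblasts, against -0.01, 0.02, 0.02 and 0.00 over all genes.

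**Figure D1:**
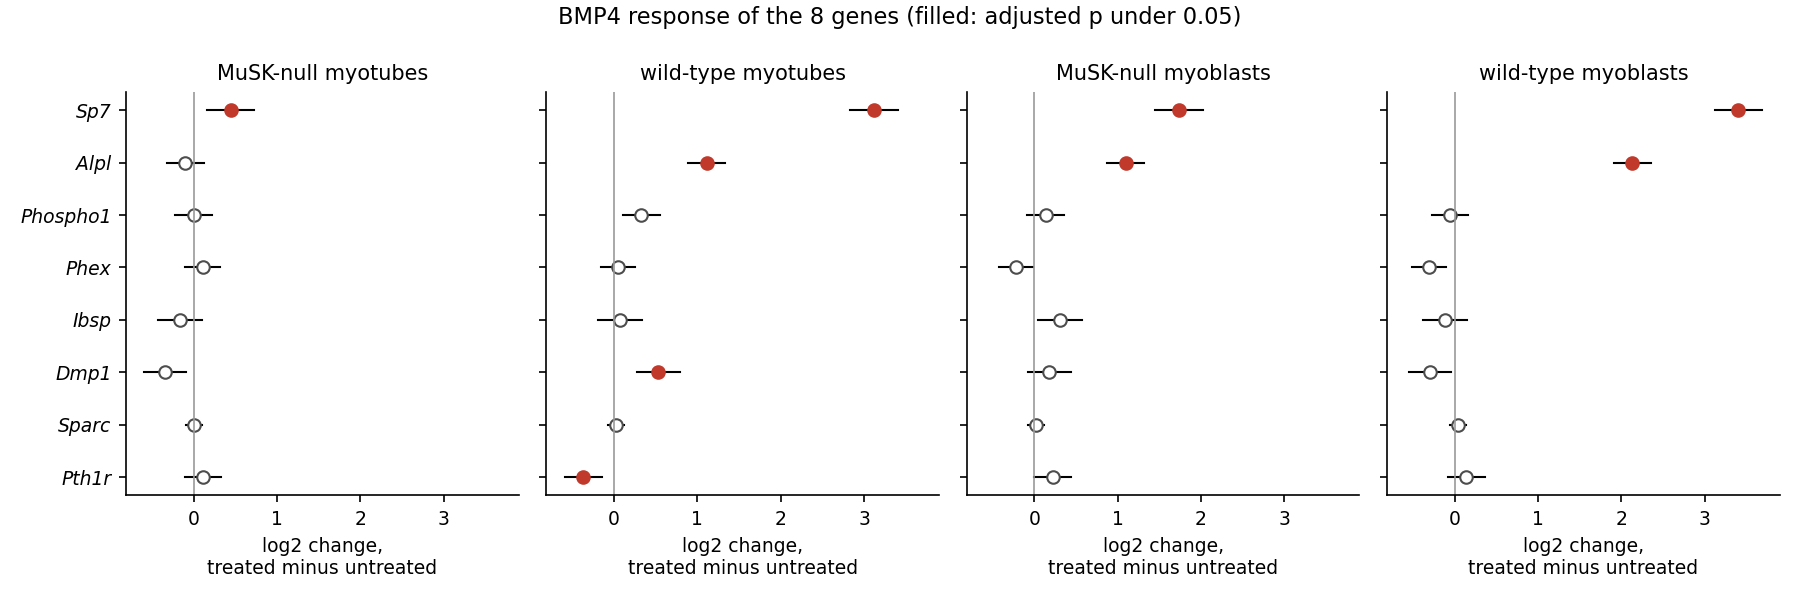
BMP4 response of the 8 genes as log2 change (treated minus untreated, horizontal axis) in the 4 cell settings; points are limma estimates from 3 arrays a group, lines 95% confidence intervals, and filled points have an adjusted p under 0.05. Sp7 stands at 3.12 and 3.40 in wild-type myotubes and myoblasts, and Sparc lies at 0 in all 4 panels.

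Sp7 gave the largest rise of all 19938 genes in wild-type myoblasts and the second largest in wild-type myotubes. In wild-type myoblasts its signal was 11.32, 11.15 and 10.87 with BMP4 and 7.64, 7.71 and 7.78 without. Every treated array was more than 3 units above every untreated one. The change was 3.40 (SE 0.14, 95% confidence interval 3.12 to 3.69, 10.6-fold, limma adjusted p = 3.85e-14), and 3.53 without the 4 arrays that deviate together. In wild-type myotubes it was 10.54, 10.46 and 10.36 with BMP4 and 7.39, 7.42 and 7.18 without, again with no overlap, a change of 3.12 (SE 0.14, 8.69-fold, adjusted p = 3.2e-13).

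In MuSK-null cells Sp7 started from a level near background and reached a lower one. In MuSK-null myoblasts the signal was 8.33, 7.97 and 8.33 with BMP4 and 6.29, 6.55 and 6.59 without. The groups did not overlap, and the change of 1.74 (SE 0.14, adjusted p = 3.26e-09; 1.89 without the 4 arrays) was a rise of at least 2.97-fold. In MuSK-null myotubes it was 6.76, 6.99 and 6.66 with BMP4 and 6.01, 6.50 and 6.57 without. These groups did not overlap either, but the change was small at 0.45 (SE 0.14, adjusted p = 0.0356), a rise of at least 1.15-fold. It was lost on leaving out untreated replicate 1 or treated replicates 1 or 2, with adjusted p-values over the 6 omissions of 0.0172 to 0.277, and with the compared groups fitted alone. The 8 group means of Sp7 ran in the order treated wild-type myoblasts, treated wild-type myotubes, treated MuSK-null myoblasts, untreated wild-type myoblasts, untreated wild-type myotubes, treated MuSK-null myotubes, untreated MuSK-null myoblasts and untreated MuSK-null myotubes. Of neighbours in this order, only the last 2 overlapped.

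Alpl rose in 3 of the 4 settings. In wild-type myoblasts its signal was 10.69, 10.57 and 10.36 with BMP4 and 8.46, 8.17 and 8.59 without. The groups lay far apart, with a change of 2.13 (SE 0.11, 4.39-fold, adjusted p = 1.57e-12; 2.10 without the 4 arrays). In MuSK-null myoblasts it was 8.38, 8.03 and 8.24 with BMP4 and 7.10, 7.07 and 7.18 without, a change of 1.10 (SE 0.11, 2.14-fold, adjusted p = 9.56e-08; 1.17 without the 4 arrays). The treated MuSK-null myoblasts thus lay within the range of the untreated wild-type ones or just under it. The untreated MuSK-null myoblast mean lay 0.48 above the background percentile, so the 2.14-fold is not exact.

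In wild-type myotubes the Alpl signal was 8.30, 8.33 and 8.33 with BMP4 and 7.29, 7.20 and 7.14 without, a change of 1.11 (SE 0.11, 2.16-fold, adjusted p = 1.16e-07). In MuSK-null myotubes it was 7.07, 7.12 and 6.83 with BMP4 and 7.07, 7.00 and 7.25 without. These groups overlapped and the change was -0.10 (95% confidence interval -0.32 to 0.12, adjusted p = 0.709). A rise in signal of more than 0.12 log2 units lies outside the interval, which covers the spread of the arrays only. The treated and untreated means lay 0.41 and 0.50 above the background percentile, and the treated mean was under the panel's 99th percentile (7.35). The interval therefore sets no firm limit on a change in RNA.

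**Figure D2:**
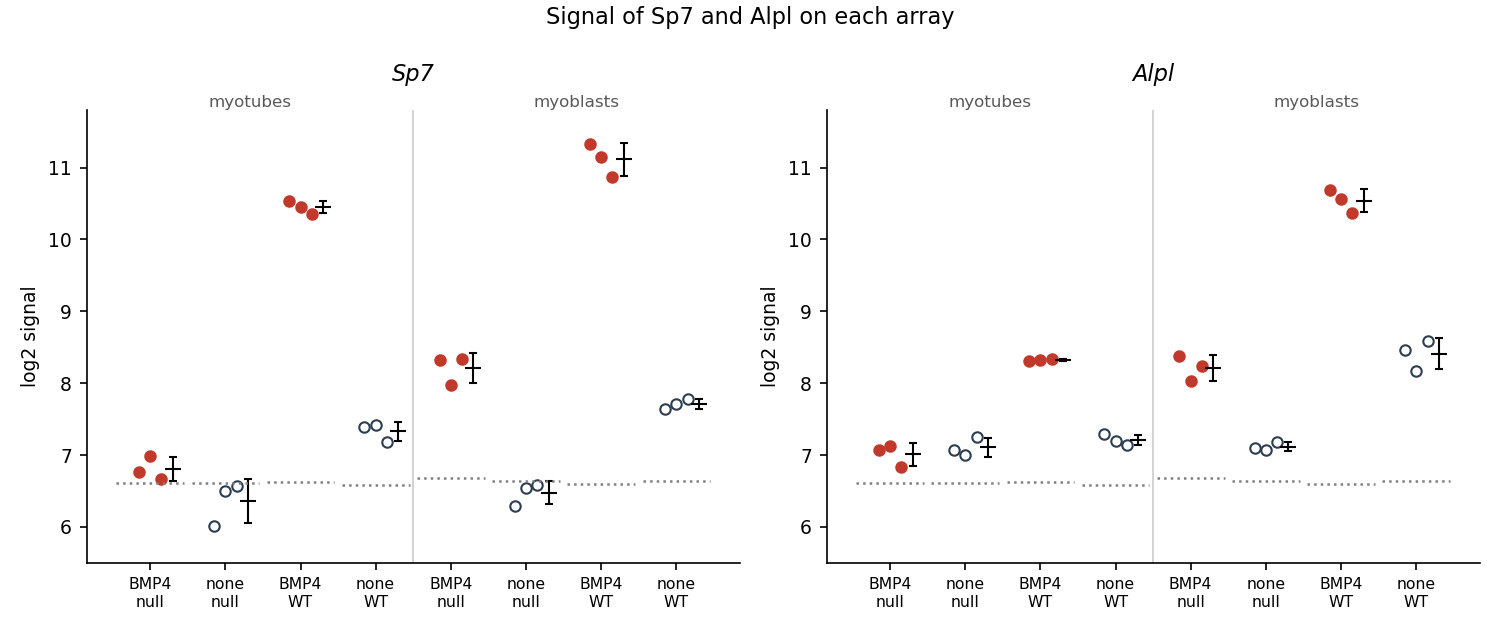
Signal (log2) of Sp7 and Alpl on each of the 24 arrays, by group; filled points are BMP4-treated, open points untreated, the bars to the right of the points mean and SD of 3 arrays, and the dotted lines the 95th percentile of the receptor panel in that group. Treated wild-type groups stand highest for Sp7, and for Alpl the treated wild-type myoblasts stand alone above 10.

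The BMP4 responses of Sp7 and Alpl differed between the genotypes at both stages. In myotubes the MuSK-null response of Sp7 was smaller than the wild-type one, with a difference of -2.67 (SE 0.19, adjusted p = 9.66e-09), the lowest such difference of all 19938 genes. For Alpl it was -1.21 (SE 0.15, adjusted p = 2.35e-05). In this contrast 3 of the 8 genes were called, all lower (the third was Dmp1), where 3.21% of all genes were. In myoblasts the differences were -1.67 (SE 0.19, adjusted p = 9.59e-06) for Sp7 and -1.04 (SE 0.15, adjusted p = 0.000182) for Alpl. These 2 genes were the ones called, where 2.39% of all genes were. Without the 4 arrays the myoblast differences were -1.63 for Sp7 and -0.94 for Alpl. Because untreated MuSK-null cells lay near background for Sp7, their response is a lower bound and the size of the Sp7 difference is not fixed by these values. For Alpl, the MuSK-null myotube means lay 0.41 and 0.50 above the background percentile, and the untreated MuSK-null myoblast mean 0.48. The sizes of its differences at both stages are therefore uncertain too.

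After treatment Sp7 was above the 95th percentile in both lines, though in MuSK-null myotubes by 0.20 only. Among treated myotubes Sp7 was lower in MuSK-null than in wild-type cells by 12.5-fold, at -3.65 (SE 0.14, adjusted p = 8.4e-16), or by at least 8.61-fold where the 99th percentile of the panel is taken as background. Alpl was lower there by -1.31 (SE 0.11, adjusted p = 8.41e-10). Among treated myoblasts Sp7 was at -2.90 (7.49-fold lower, adjusted p = 4.66e-14) and Alpl at -2.33 (SE 0.11, adjusted p = 3.05e-14). The treated contrasts called 5 of the 8 genes in myotubes, all lower in MuSK-null cells, where 36.3% of all genes were called, and 4 in myoblasts, 3 lower and Sparc higher, where 29.7% were. Untreated cells differed too. Sp7 was at least 1.66-fold lower in untreated MuSK-null than wild-type myotubes and at least 2.1-fold lower in untreated myoblasts. Alpl was lower in untreated MuSK-null myoblasts by -1.29 (SE 0.11, adjusted p = 1.18e-09), while the difference in untreated myotubes was -0.10 (adjusted p = 0.518). The Alpl means of untreated MuSK-null cells lay 0.48 (myoblasts) and 0.50 (myotubes) above the background percentile, so these sizes are not exact. The untreated contrasts called 2 of the 8 genes in myotubes, where 37.4% of all genes were called, and 4 in myoblasts, where 31.3% were. Myogenic and fibroblast markers also differed between the lines. Of 10 myogenic markers, 8 were lower and 1 was higher in MuSK-null than in wild-type myoblasts both with and without BMP4, with median differences of -1.91 in treated and -1.95 in untreated cells. In myotubes 5 were lower and 2 higher with BMP4 (median -0.16), and 6 lower and 1 higher without (median -0.26). Of 7 fibroblast markers, 4 were higher and 2 lower in MuSK-null than in wild-type myotubes, treated or untreated, 3 were higher and 2 lower in treated myoblasts, and 3 were higher and 3 lower in untreated myoblasts. The part of these markers in the genotype differences was not tested.

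The BMP4 response of Alpl differed between the stages in both lines, and that of Sp7 in the MuSK-null line. Treated myotubes were at 37 °C without serum deprivation, and treated myoblasts at 33 °C after 4 h of it. Stage, temperature and serum deprivation therefore cannot be told apart in these differences. The Alpl response was smaller in myotubes than in myoblasts by -1.20 (SE 0.15, adjusted p = 1e-05) in MuSK-null cells and by -1.02 (SE 0.15, adjusted p = 0.000199) in wild-type cells. For Sp7 the stage difference was -1.29 (SE 0.19, adjusted p = 9.11e-05) in MuSK-null cells and -0.28 (95% confidence interval -0.68 to 0.12, adjusted p = 0.646) in wild-type cells. In MuSK-null cells 2 of the 8 genes were called, where 6.16% of all genes were, and in wild-type cells 2, Alpl lower and Dmp1 higher, where 3.42% were. The difference between the genotypes in this stage difference was -1.01 for Sp7 (SE 0.27, adjusted p = 0.0511), just short of the threshold and past it under 7 alternatives, and -0.18 for Alpl (adjusted p = 0.813). It called 1 of the 8 genes, Dmp1, where 2.5% of all genes were called. Without BMP4, Alpl was lower in wild-type myotubes than in wild-type myoblasts by -1.20 (SE 0.11, adjusted p = 1.86e-09), and in MuSK-null cells the stage difference was -0.01. Sp7 was lower in untreated wild-type myotubes than myoblasts by -0.38 (adjusted p = 0.0274), a call lost without wild-type myoblast replicate 2 or 3 or myotube replicate 3 (adjusted p up to 0.123).

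Known BMP target genes rose in MuSK-null myotubes, where Alpl passed no test. Id1 and Id3, which block muscle-forming helix-loop-helix factors, and Smad6, a feedback inhibitor, are direct targets of BMP-activated Smads. In MuSK-null myotubes the rise was 2.19 for Id1 (SE 0.07), 2.86 for Id3 (SE 0.09) and 1.99 for Smad6 (SE 0.08). In wild-type myotubes they rose by 2.05, 1.88 and 1.78. The difference of these responses between genotypes was 0.14 for Id1 (adjusted p = 0.623), 0.97 for Id3 (adjusted p = 4.67e-05) and 0.21 for Smad6 (adjusted p = 0.41), against -2.67 for Sp7 and -1.21 for Alpl. In myoblasts the Id1 response was smaller in MuSK-null cells by -1.45 (SE 0.10, adjusted p = 1.06e-08) and the Id3 response by -1.60 (SE 0.13, adjusted p = 5.08e-08), beside -1.67 for Sp7 and -1.04 for Alpl. For Smad6 the myoblast difference was -0.30 (adjusted p = 0.236), with rises of 1.99 in MuSK-null and 2.29 in wild-type cells. Untreated MuSK-null myoblasts had more Id1 than wild-type ones by 1.96 (SE 0.07) and more Id3 by 1.66 (SE 0.09). Among treated myoblasts the genotype difference was 0.51 for Id1 and 0.06 for Id3 (adjusted p = 0.701), beside -2.90 for Sp7 and -2.33 for Alpl.

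**Figure D3:**
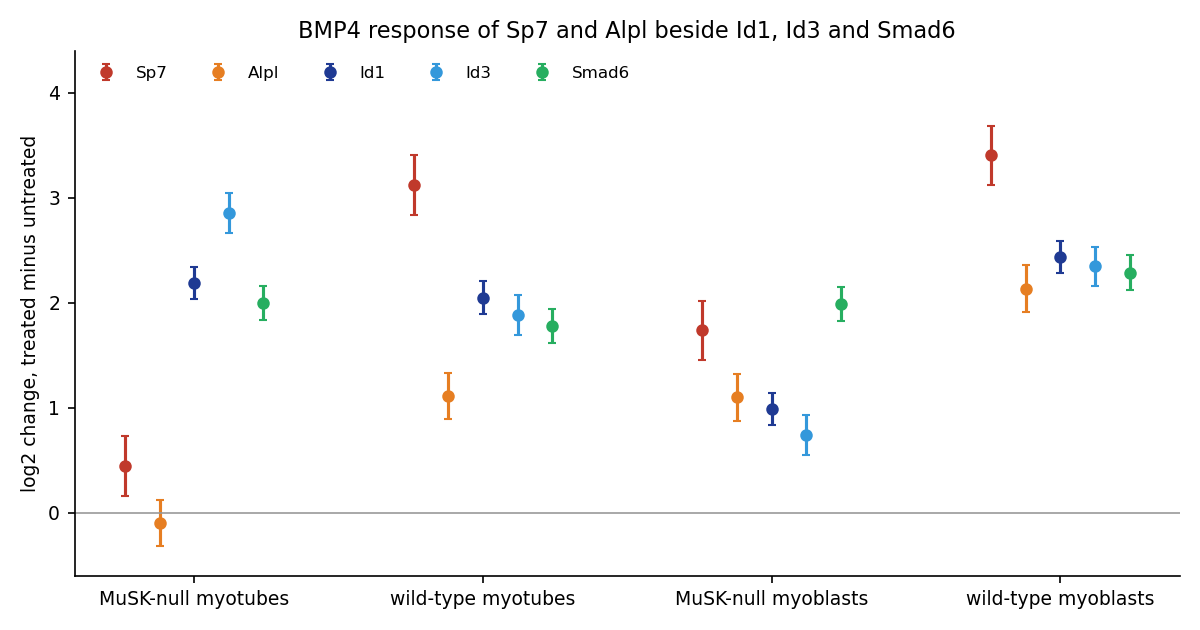
BMP4 response (log2 change, treated minus untreated, with 95% confidence intervals) of Sp7 and Alpl beside the BMP targets Id1, Id3 and Smad6 in the 4 cell settings. In MuSK-null myotubes Sp7 and Alpl lie at 0.45 and -0.10 while the 3 targets lie between 1.99 and 2.86.

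Dmp1 was read above background in 3 myotube groups and in none of the myoblasts. In wild-type myotubes its signal was 7.70, 7.52 and 7.79 with BMP4 and 6.87, 7.43 and 7.11 without. The groups did not overlap, though one untreated array came close, and the change was 0.53 (SE 0.12, 1.45-fold, adjusted p = 0.00529). It was lost without untreated wild-type replicate 1 (0.40, adjusted p = 0.058) and with the compared groups alone (adjusted p = 0.0588). In MuSK-null myotubes Dmp1 was 6.46, 6.60 and 6.52 with BMP4 and 6.87, 6.91 and 6.82 without. Here the treated arrays were the lower ones, without overlap, but the change of -0.34 (SE 0.12) had an adjusted p of 0.0813. With the compared groups alone it passed the threshold (adjusted p = 0.0125). The treated side was near background, so the sizes of this change and of its difference from the wild-type response are not exact. The 2 responses differed by -0.88 (SE 0.17, adjusted p = 0.004). Among treated myotubes Dmp1 was at least 2.09-fold lower in MuSK-null than in wild-type cells (adjusted p = 7.31e-08). The stage difference of its response was 0.83 (SE 0.17, adjusted p = 0.0056) in wild-type cells and -0.52 (adjusted p = 0.0826, or 0.0152 with the compared groups alone) in MuSK-null cells, and the difference between these was -1.35 (SE 0.25, adjusted p = 0.00208). The myoblast side of these rests on values near background.

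Phospho1 followed the stage of the cells. Without BMP4 its signal was 9.34, 9.58 and 9.53 in MuSK-null myotubes and 6.67, 6.75 and 6.62 in MuSK-null myoblasts, a difference of 2.80 (SE 0.11, 6.98-fold, adjusted p = 4.16e-16). In wild-type cells it was 9.40, 9.46 and 9.45 in myotubes and 7.71, 7.25 and 7.29 in myoblasts, a difference of 2.02 (SE 0.11, 4.05-fold, adjusted p = 1.72e-13). The stages were far apart in both lines. The contrast of untreated myotubes with myoblasts called 3 of the 8 genes in MuSK-null cells, where 41.6% of all genes were called, and 6 in wild-type cells, where 45% were. Phospho1 was lower in MuSK-null than in wild-type myoblasts, by -0.54 (SE 0.11, adjusted p = 0.000301) with BMP4 and by -0.74 (SE 0.11, adjusted p = 6.41e-06) without. Its mean in MuSK-null myoblasts lay 0.13 above the background percentile with BMP4 and 0.04 without. The sizes of the differences that use these means, with the 6.98-fold, are therefore not exact. Its BMP4 response in wild-type myotubes was 0.33 (SE 0.11, adjusted p = 0.0582), with no overlap of the groups, and it passed the threshold under 6 alternatives. The genotype difference in treated myotubes, -0.28 (adjusted p = 0.0407), was lost on leaving out any of 5 of the 6 arrays (adjusted p up to 0.251), all but treated wild-type replicate 3. In the other 3 settings the response lay between -0.06 and 0.14 and passed no test.

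Pth1r was high in wild-type myotubes alone. Without BMP4 it was 6.88, 6.73 and 6.92 in MuSK-null myotubes and 8.55, 8.45 and 8.62 in wild-type myotubes. With BMP4 it was 7.07, 7.02 and 6.77 in MuSK-null myotubes and 8.32, 8.36 and 7.83 in wild-type myotubes, and over all myoblast arrays it ran from 6.85 to 7.21. Every wild-type myotube array was therefore above every other array. The genotype difference in untreated myotubes was -1.70 (SE 0.11, adjusted p = 8.3e-12) and in treated myotubes -1.22 (SE 0.11, adjusted p = 2.65e-09). Untreated wild-type myotubes exceeded wild-type myoblasts by 1.54 (SE 0.11, adjusted p = 2.47e-11), and the same stage difference in MuSK-null cells was -0.10 (adjusted p = 0.505). The MuSK-null myotube means lay 0.24 (untreated) and 0.35 (treated) above the background percentile, and the untreated wild-type myoblast mean 0.37. The sizes of these genotype and stage differences are therefore not exact. The BMP4 response of Pth1r in wild-type myotubes was -0.37 (SE 0.11, adjusted p = 0.0318). This call was lost on leaving out untreated replicate 1, untreated replicate 3 or treated replicate 3 (changes over the 6 omissions from -0.46 to -0.20). It was also lost with the compared groups alone, at a fold of at least 1.5, and without the 4 myoblast arrays that deviate together.

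Ibsp, Phex and Sparc passed no test of the BMP4 response in the fit over all groups. Ibsp lay between 4.58 and 5.27 on all 24 arrays, close to the median of the receptor panel (4.88 to 4.95), and passed no test in any of the 15 contrasts. Its level cannot be read from this probe set in these cells. Phex lay between 5.81 and 6.53. Its responses passed no test (the largest was -0.30 in wild-type myoblasts, adjusted p = 0.0505, past the threshold under 6 alternatives with adjusted p as low as 0.0238 and near background on both sides), and although untreated myotubes were below myoblasts by -0.43 in MuSK-null and -0.42 in wild-type cells, both sides were near background. Sparc was bright, from 13.83 to 14.05 where the highest value on any array was 15.03. Its BMP4 responses were 0.01, 0.02, 0.03 and 0.04 in MuSK-null myotubes, wild-type myotubes, MuSK-null myoblasts and wild-type myoblasts, with adjusted p-values from 0.769 to 0.973. It was slightly higher in MuSK-null than in wild-type untreated myoblasts, at 0.15 (SE 0.05, adjusted p = 0.0162), a call lost with the replicate numbers as a block and the compared groups alone, and without untreated wild-type replicate 3 (adjusted p = 0.0508). In treated myoblasts the difference was 0.13 (adjusted p = 0.0356), lost without replicate 1 or 2 of either line (adjusted p up to 0.135). Whether the scale is compressed at this brightness was not tested.

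**Figure D4:**
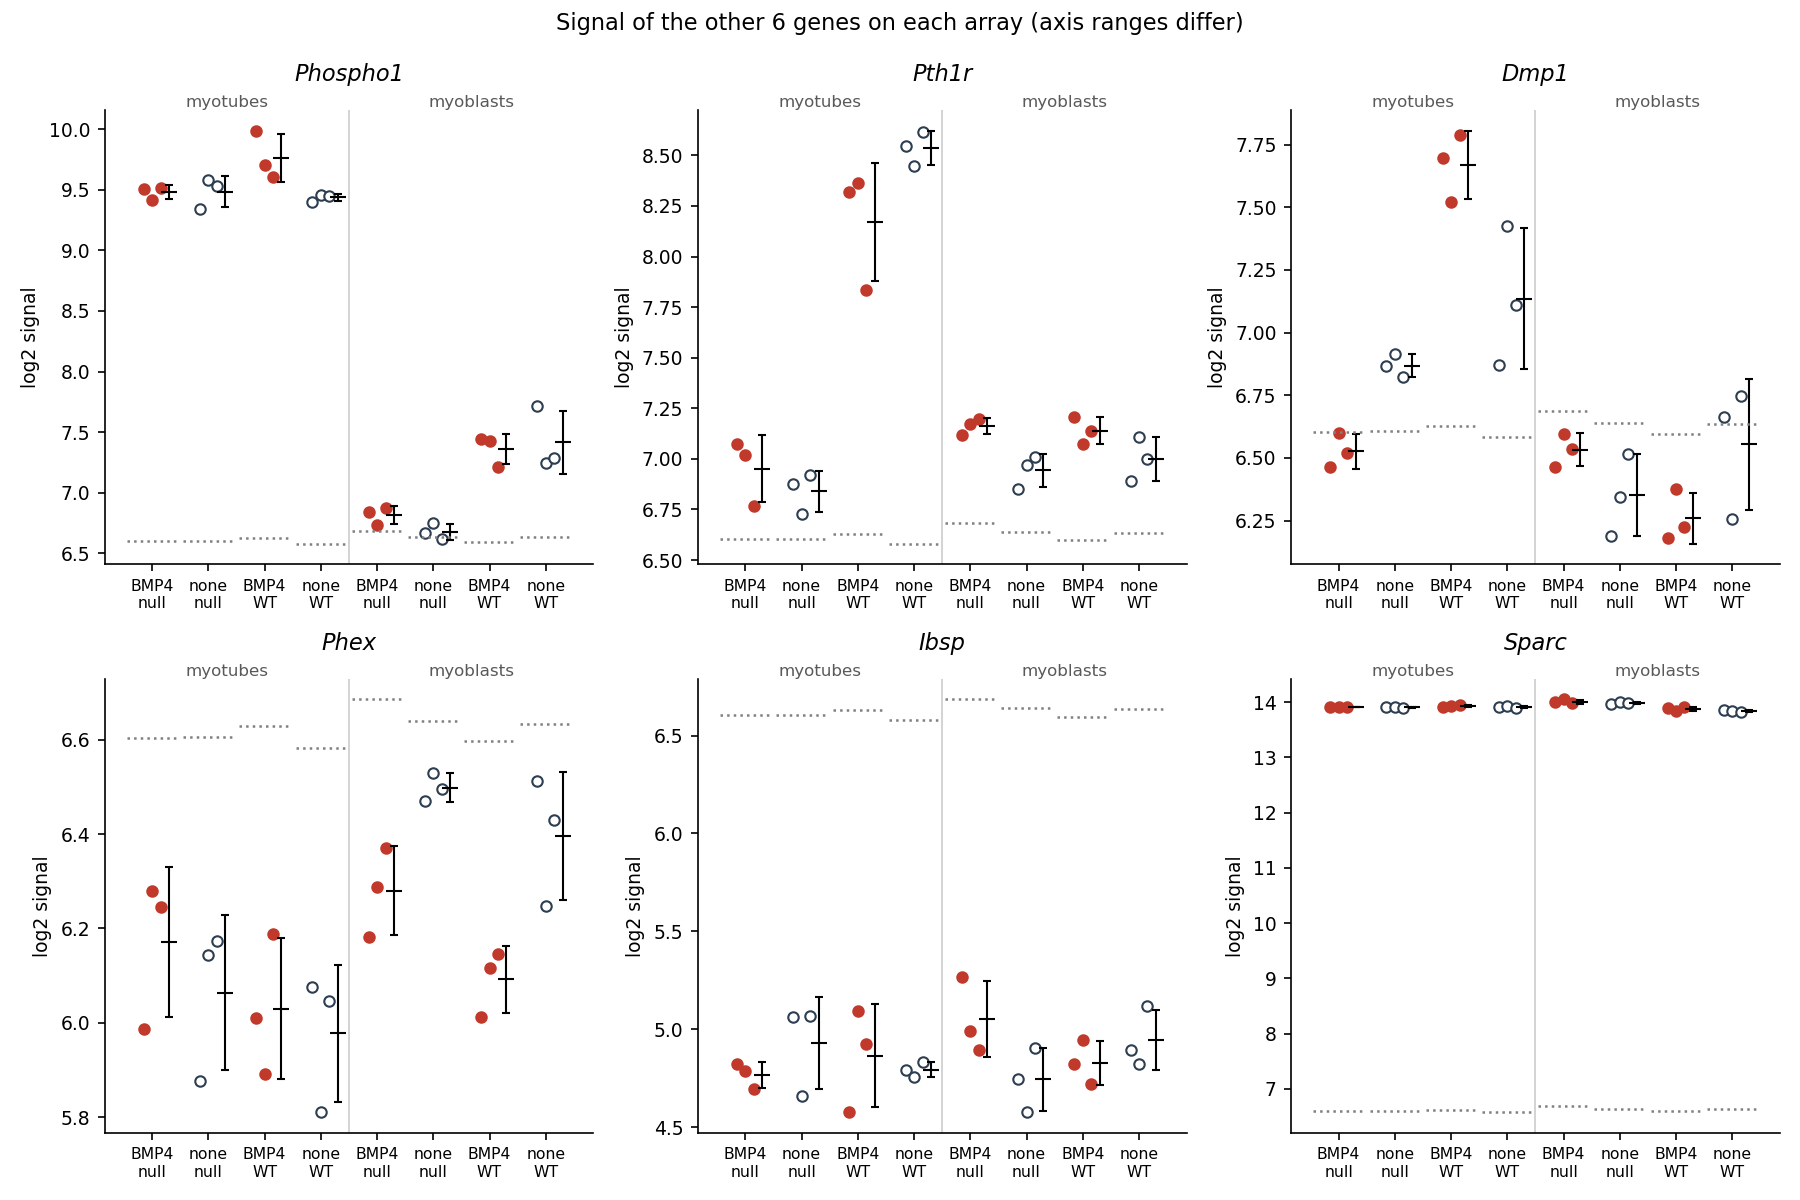
Signal (log2) of the other 6 genes on each of the 24 arrays, with a vertical axis of its own for each gene; filled points are BMP4-treated, open points untreated, bars mean and SD of 3 arrays, dotted lines the 95th percentile of the receptor panel. Phospho1 separates myotubes from myoblasts, Pth1r is high in wild-type myotubes, and Ibsp and Phex lie under the dotted lines.

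Other genes of the osteoblast programme were taken from 5 lists, of which 78 of 88 genes were measured. The lists were chosen with earlier results of these data known, so their counts describe the listed genes and are no independent support. Of 18 transcription factors of osteoblasts measured, 7 rose in MuSK-null myotubes, 4 in wild-type myotubes, 8 in MuSK-null myoblasts and 11 in wild-type myoblasts, and 0 fell in any setting, where between 3.89% and 5.36% of all genes rose and between 4.37% and 5.9% fell. The others passed no test. The medians of the list were 0.14, 0.15, 0.18 and 0.43 in the same order, against -0.01, 0.02, 0.02 and 0.00 over all genes. Msx2, a homeobox factor induced by BMPs, rose by 0.44 (SE 0.12) in MuSK-null myotubes, where Alpl passed no test, and its change in wild-type myotubes was 0.15 (adjusted p = 0.584). In myoblasts Msx2 rose by 0.97 in MuSK-null and by 2.05 in wild-type cells, and these responses differed by -1.08 (SE 0.17, adjusted p = 0.00064). Dlx5, a homeobox activator of bone genes, rose by at least 1.46-fold in MuSK-null myotubes, at least 1.75-fold in MuSK-null myoblasts and at least 1.87-fold in wild-type myoblasts, each against an untreated level near background. Hey1, a repressor downstream of Notch and BMP signals, rose in all 4 settings, by 1.25, 1.41, 1.96 and 1.26. Dlx3 rose by 0.61, 0.98, 0.37 and 1.00 in the same order, and Lef1, a Wnt pathway factor, by 0.59, 0.51, 0.85 and 1.14.

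**Figure D5:**
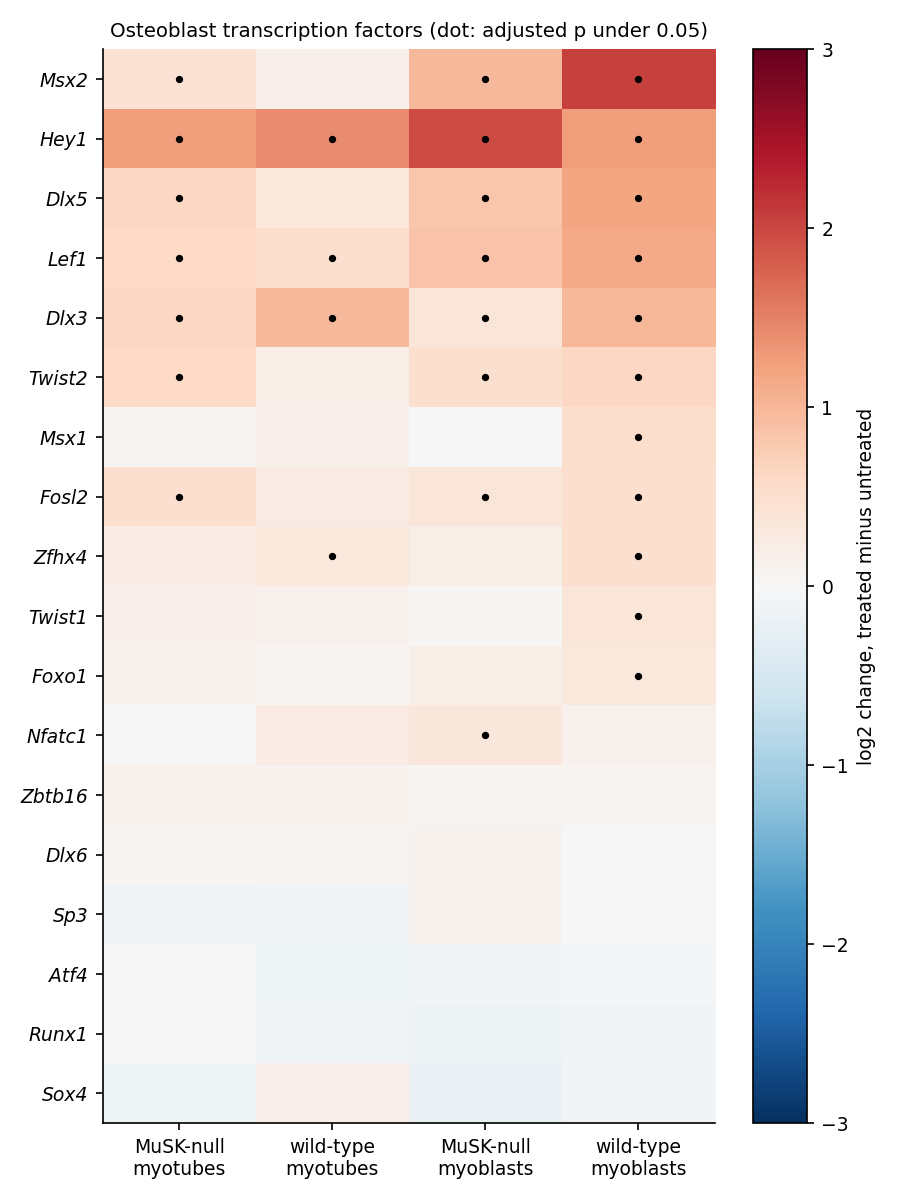
BMP4 response (colour, log2 change, treated minus untreated) of the 18 measured osteoblast transcription factors in the 4 cell settings, ordered by the change in wild-type myoblasts; a dot marks an adjusted p under 0.05. Hey1, Lef1 and Dlx3 have a dot in all 4 columns, and 11 genes have one in wild-type myoblasts.

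Counts in the other lists were mostly of a few genes. Over all genes, 5.36% rose and 5.9% fell in MuSK-null myotubes, 4.4% and 4.37% in wild-type myotubes, 3.89% and 4.52% in MuSK-null myoblasts, and 5.21% and 5.76% in wild-type myoblasts, so a count of 1 in a list of 20 is at that share. Of 20 matrix genes of bone, 2 rose and 2 fell in MuSK-null myotubes, 1 rose and 0 fell in wild-type myotubes, 1 rose and 3 fell in MuSK-null myoblasts, and 3 rose and 2 fell in wild-type myoblasts. Tnc (tenascin C) rose by 0.35, 0.62 and 0.80 in MuSK-null myotubes, MuSK-null myoblasts and wild-type myoblasts, whereas Dcn (decorin) fell by 0.45, 0.90 and 0.34 there. Col1a1, the main collagen chain of bone, passed no test of the response in any setting. It was higher in MuSK-null than in wild-type cells throughout, by 1.37 to 1.58.

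Among 21 mineral and phosphate genes, 2 rose and 4 fell in MuSK-null myotubes, 2 rose and 1 fell in wild-type myotubes, 2 rose and 4 fell in MuSK-null myoblasts, and 2 rose and 2 fell in wild-type myoblasts, where 3.89% to 5.36% of all genes rose and 4.37% to 5.9% fell. Ank, which carries pyrophosphate out of the cell, rose in all 4 settings by 0.35, 0.47, 0.39 and 0.85. Enpp3, an enzyme that cleaves nucleotides outside the cell, fell by 0.39 in MuSK-null myotubes, by 0.93 in MuSK-null myoblasts and by 1.27 in wild-type myoblasts. Fam20c, the kinase of secreted matrix proteins such as Dmp1, rose in wild-type myotubes by 0.57 (SE 0.07), and its response was smaller in MuSK-null myotubes by -0.41 (SE 0.11, adjusted p = 0.0313). In MuSK-null myoblasts Fam20c fell, with a change of -0.36 (SE 0.07, adjusted p = 0.00194), and its response there was also called lower than in wild-type myoblasts.

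Of 13 genes around the parathyroid hormone receptor, 3 rose and 1 fell in MuSK-null myotubes, in wild-type myotubes and in wild-type myoblasts, and 1 rose and 1 fell in MuSK-null myoblasts, where a count of 1 is near the share of all genes (3.89% to 5.36% rose and 4.37% to 5.9% fell). Ramp2, an accessory protein of G-protein-coupled receptors, fell in all 4 settings, by 0.35, 0.36, 1.31 and 1.32. Arrb1 (beta-arrestin 1) rose in all 4, by 0.48, 0.34, 0.30 and 0.23. Of 7 relatives of Sparc, 1, 3, 4 and 3 rose in MuSK-null myotubes, wild-type myotubes, MuSK-null myoblasts and wild-type myoblasts, and 1 fell, in wild-type myoblasts. Smoc2 rose in all 4, by 1.53, 1.13, 1.07 and 1.42. Smoc1 rose by 0.88 (SE 0.10) in wild-type myotubes and its change in MuSK-null myotubes was 0.14 (adjusted p = 0.474); these differed by -0.74 (SE 0.14, adjusted p = 0.0026).

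Some markers of other cell types also changed with BMP4, and their part in the results of Sp7 and Alpl was not tested. Over all genes 3.89% to 5.36% rose and 4.37% to 5.9% fell, so counts of 0 or 1 in these lists are near the background. Of 10 myogenic markers, 2 rose and 1 fell in MuSK-null myotubes, 1 rose and 0 fell in wild-type myotubes, 0 rose and 4 fell in MuSK-null myoblasts, and 1 rose and 4 fell in wild-type myoblasts. Myog (myogenin) fell by 0.67 in MuSK-null and by 0.44 in wild-type myoblasts. The mean signal of the 10 markers ran from 9.76 to 9.91 in treated and from 10.11 to 10.12 in untreated MuSK-null myoblasts, and from 11.57 to 11.60 in treated wild-type myoblasts, against 11.65 on each array of untreated ones. In MuSK-null myotubes it ran from 12.38 to 12.42 with BMP4 and from 12.30 to 12.35 without, and in wild-type myotubes from 12.44 to 12.48 with BMP4 and from 12.42 to 12.47 without. Of 12 cartilage markers, 0 rose and 3 fell in MuSK-null myotubes, 1 rose in wild-type myotubes, 2 rose in MuSK-null myoblasts, and 3 rose and 1 fell in wild-type myoblasts. Sox9, the cartilage transcription factor, rose by 0.93 in MuSK-null and by 0.63 in wild-type myoblasts and fell by 0.31 in MuSK-null myotubes. The mean signal of the cartilage markers ran from 7.80 to 7.86 in treated and from 7.54 to 7.67 in untreated MuSK-null myoblasts, and from 7.59 to 7.67 in treated and from 7.42 to 7.57 in untreated wild-type myoblasts. Of 7 adipocyte markers 2, 1, 2 and 1 rose in MuSK-null myotubes, wild-type myotubes, MuSK-null myoblasts and wild-type myoblasts, with 0 falls. Of 7 fibroblast markers 1, 0, 1 and 1 rose and 3, 0, 2 and 2 fell in the same order. Of 4 tendon markers 1 rose in each setting and 1 fell in MuSK-null myoblasts. Of 6 smooth muscle markers 1, 0, 0 and 1 rose and 2, 1, 0 and 0 fell.

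The genes whose 8 group means were most like those of Sp7 were Hoxa13 (Pearson r = 0.951), Smoc1 (r = 0.948) and Gprin3 (r = 0.947), out of 4046 genes whose group means spanned at least 1 log2 unit. For Alpl they were B3galt1 (r = 0.986), Avpr1a (r = 0.971) and Phyhipl (r = 0.970). The r between Sp7 and Alpl was 0.875. These r values describe 8 group means that all genes share and carry no test. Next to Sp7 in the gene order of the mouse reference lies Aaas, a nuclear pore gene, which rose in all 4 settings by 0.32, 0.43, 0.46 and 0.50. Sp1, on the other side of Sp7, changed by 0.14, 0.04, -0.01 and 0.01 in the same order and passed no test. Next to Alpl lies Ece1, which rose by 0.37, 0.43 and 0.25 in MuSK-null myotubes, MuSK-null myoblasts and wild-type myoblasts. Rap1gap, on the other side of Alpl, changed by -0.19, -0.19, 0.45 and 0.10 over the 4 settings. It passed the test in MuSK-null myoblasts alone (adjusted p = 0.00679).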

How the data were processed

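RNA of 24 samples was hybridised to Affymetrix arrays, 1 array per sample. The deposited values are log2 signals by the authors, 1 per probe set and array, spanning 2.50 to 15.03. The software was Affymetrix Expression Console and Partek, per the submitters' processing notes; no version, role or normalization step is given in the sources used here. Medians of the arrays were 7.38 to 7.50, and the median within-group SD was 0.11. For arrays, their number limits the precision. Of 35556 rows, 21789 had 1 gene, 1621 several and 12146 none, per the platform annotation; the last 2 kinds were not tested. For 999 genes with several rows the row with the highest mean was kept.

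limma 3.58.1 (R 4.3.3) was used to fit group means over the 24 arrays (16 residual degrees of freedom), with 15 contrasts and Benjamini-Hochberg adjustment over 19938 genes; the fit was checked on simulated arrays. The members and lists were chosen with earlier results of these data known. Genes outside the 8 were named as the largest called changes of each list, the closest patterns, and neighbours; BMP targets and markers were listed alongside, and examples from the lists, markers and neighbours were picked after their values were seen. Alternatives were the compared groups alone, trend and robust moderation, quantile normalization, median centring, a filter on dim genes, each probe set as its own test, a fold of at least 1.5, replicate numbers as a block, the 4 arrays that deviate together as a block or left out, each array left out, and panel percentiles of 90 and 99. Same-numbered arrays deviated together in every pair (correlations 0.116 to 0.46) for the BMP4 response in MuSK-null myoblasts and (0.223 to 0.421) for genotype in untreated myoblasts; the replicate numbers come from the labels, which name no shared batch. The correlations of the 4 arrays over rows without a gene name were 0.334 to 0.503. The set was picked on these rows for the highest smallest correlation, so these values are the top of a search. Scan dates were not analysed here.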

Additional observations from a re-analysis of the deposited data

Results flagged for a closer look

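Among the 8 genes, 10 differences of BMP4 responses passed the limma test of the difference itself. Of all genes, 2.39% to 6.16% were called in each of the same contrasts. Between genotypes in myotubes (MuSK-null minus wild type) these were Sp7 at -2.67, Alpl at -1.21 and Dmp1 at -0.88. In myoblasts they were Sp7 at -1.67 and Alpl at -1.04. Between stages (myotubes minus myoblasts) they were Sp7 at -1.29 and Alpl at -1.20 in MuSK-null cells, and Alpl at -1.02 and Dmp1 at 0.83 in wild-type cells. The difference of the stage differences was -1.35 for Dmp1. Adjusted p-values ran from 9.66e-09 (Sp7, genotype, myotubes) to 0.0056 (Dmp1, stage, wild type). Each kept its call on leaving out any 1 array and under the other alternatives that gave a value. The Sp7 differences use untreated MuSK-null means near background, and the Dmp1 stage and three-way differences use myoblast means near background. The Dmp1 genotype and three-way differences also use its treated MuSK-null myotube mean, which was near background. Each Alpl difference uses at least 1 mean that lay within 1 unit of the background percentile.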

How the results depend on the processing

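Of 120 log2 changes (8 genes in 15 contrasts), 43 were called; over 2242 recalculations 2163 kept direction and call, 36 gained a call, 43 lost one and 0 changed the sign of a call. A fold of at least 1.5 took the number of called genes to 0 for the BMP4 response in MuSK-null myotubes, 2 in wild-type myotubes, 2 for genotype in treated myoblasts, and 1 and 3 for stage in untreated MuSK-null and wild-type cells. The compared groups alone gave 2 in wild-type myotubes. The three-way difference had 2 (Dmp1 and Sp7) with the array set as a block, with dim genes left out and with trend and robust moderation. Leaving out 1 array gave 0 to 1 for the response in MuSK-null myotubes, 2 to 4 in wild-type myotubes (2 without untreated replicate 1), 2 in MuSK-null myoblasts, 2 to 4 in wild-type myoblasts (4 without untreated replicate 2, which adds Dmp1 and Phex) and 1 to 2 for the three-way difference. The causes were not tested, beyond the stricter rule and the smaller groups themselves. The replicate block gave 3 called genes in wild-type myoblasts (Phex added, adjusted p = 0.0351), where the numbers do not pair the arrays, and left the count of called genes as it was in the other contrasts; with the compared groups alone it kept 2 for the response in MuSK-null myoblasts and 4 for genotype in untreated myoblasts, there without Sparc and with Ibsp. Over all genes, a fold of at least 1.5 cut calls by more than 1.5 times, for example to 552 of 2186 in wild-type myoblasts, and the array set as a block raised the differences of responses to 745 in myoblasts and 1011 in myotubes. Centring moved medians by at most 0.06. At the 99th percentile of the panel 2 to 7 genes were near background in a group, at the 90th 1 to 2.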
